A study of Danio rerio with 24 samples.

Results

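si:dkeyp-46h3.6 and si:dkeyp-46h3.2 are 2 genes on zebrafish chromosome 19 whose signal was far lower in the eggs of 1 of 5 mothers than in the eggs of the others. They were chosen for that difference in the egg signal and for lying close together, and they are 2 of the 88754 transcripts that the main probe set of the array measures. 1 probe was paired with each gene, and both probes counted as expressed, as did 26934 transcripts (30.3%) of the set. The study hybridized 24 arrays, each with the amplified RNA of 1 mature, unfertilized egg labelled with Cy3 and with a reference pooled from eggs labelled with Cy5. The mothers were sisters of wild-type genotype ABTL, the eggs were obtained by squeezing and frozen singly, and 5 eggs were profiled from each of mothers 1 to 4 and 4 eggs from mother 5. The females were briefly anesthetized with Tricaine before squeezing. No treatments were compared, and the mother is the one factor by which the eggs were grouped. Each mother gave 1 clutch, so differences between mothers and between clutches cannot be told apart.

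RNA in a mature egg is maternal: it is made or deposited during oogenesis, while the egg itself is held to be transcriptionally quiescent, and it serves the embryo until its own genome becomes active. Its amount per gene can therefore be compared between the clutches of different mothers and between the eggs of 1 clutch. Names that start with si: were given to genes found on sequenced genomic clones, and no function of si:dkeyp-46h3.6 or si:dkeyp-46h3.2 is given here.

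On the Zv9 genome build si:dkeyp-46h3.6 (ENSDARG00000087363) lay at chr19:27977441-27980235 and si:dkeyp-46h3.2 (ENSDARG00000092498) at chr19:28002600-28004619, with 25.2 kb between their starts. Between them lay 2 other genes of the same clone that the arrays measured, si:dkeyp-46h3.5 (ENSDARG00000089515) at chr19:27984008-27986110 and si:dkeyp-46h3.9 (ENSDARG00000092831) at chr19:27997527-28000514. In the RefSeq annotation of the later build GRCz12tu both genes of the pair are protein coding, with LOC137487327 and si:dkeyp-46h3.3 between them and cfap90 after si:dkeyp-46h3.2. The probe of si:dkeyp-46h3.6 is listed as matching 12 transcripts, 3 it was designed on and 9 cross-matched ones, and that of si:dkeyp-46h3.2 as matching 11, of which 1 was the design target. They have 6 cross-matched transcripts in common, and neither lists a transcript on which the other was designed.

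In si:dkeyp-46h3.6 the eggs of mother 3 stood far below all others. The log2 Cy3 signal after quantile normalization was 13.59, 13.98, 13.78, 13.77 and 13.65 in the eggs of mother 1. It was 13.15, 13.21, 13.14, 13.26 and 12.84 in those of mother 2. In mother 3 it was 8.43, 7.25, 6.92, 8.96 and 8.48. Every egg of mother 3 was thus at least 3.88 below the lowest egg of any other mother, and the 5 eggs differed more among themselves than those of any other clutch. The eggs of mother 4 read 14.18, 14.18, 14.42, 14.38 and 14.25. Those of mother 5 read 13.83, 13.87, 13.55 and 13.72. Mother 4 was highest without overlap with another clutch, mothers 1 and 5 overlapped, and mother 2 lay below them without overlap.

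For mothers 1 to 4 the mean signal of si:dkeyp-46h3.6 came to 13.75 ± 0.15, 13.12 ± 0.17, 8.01 ± 0.87 and 14.28 ± 0.12 (SD, n = 5 each), and for mother 5 to 13.74 ± 0.15 (SD, n = 4). Mother 2, the next lowest, was 34.6-fold above mother 3, while mother 4 was only 2.24-fold above mother 2. Mothers 1 and 5, neighbours in this order, differed by 0.01 (SE 0.10) on the log2 scale. Since the pair was chosen for its difference between mothers, these values describe it and were not tested.

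si:dkeyp-46h3.2 had the same mother at the bottom. Its log2 Cy3 signal was 15.28, 14.78, 14.84, 14.79 and 14.57 in the eggs of mother 1. It was 14.06, 14.18, 14.50, 13.84 and 13.51 in those of mother 2. The eggs of mother 3 read 10.30, 9.38, 8.997, 10.53 and 11.07, so that the highest of them was 2.44 below the lowest egg of the others. In mother 4 the eggs read 15.29, 15.29, 15.26, 15.89 and 15.80. In mother 5 they read 14.83, 14.76, 14.78 and 14.79. Mothers 1, 4 and 5 fell into the same level, since mother 1 overlapped mother 5 and its egg 1 lay within the range of mother 4. Mothers 4 and 5 did not overlap each other. Mother 2 lay below mothers 1, 4 and 5 without overlap.

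For mothers 1 to 4 the mean signal of si:dkeyp-46h3.2 came to 14.85 ± 0.26, 14.02 ± 0.37, 10.06 ± 0.85 and 15.51 ± 0.31 (SD, n = 5 each), and for mother 5 to 14.79 ± 0.03 (SD, n = 4). Mother 2 was 15.6-fold above mother 3 and mother 4 was 2.80-fold above mother 2. The order of the mothers was that of si:dkeyp-46h3.6, with mother 4 first, mothers 1 and 5 next to each other, 0.06 (SE 0.12) apart, then mother 2 and last mother 3.

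**Figure D1:**
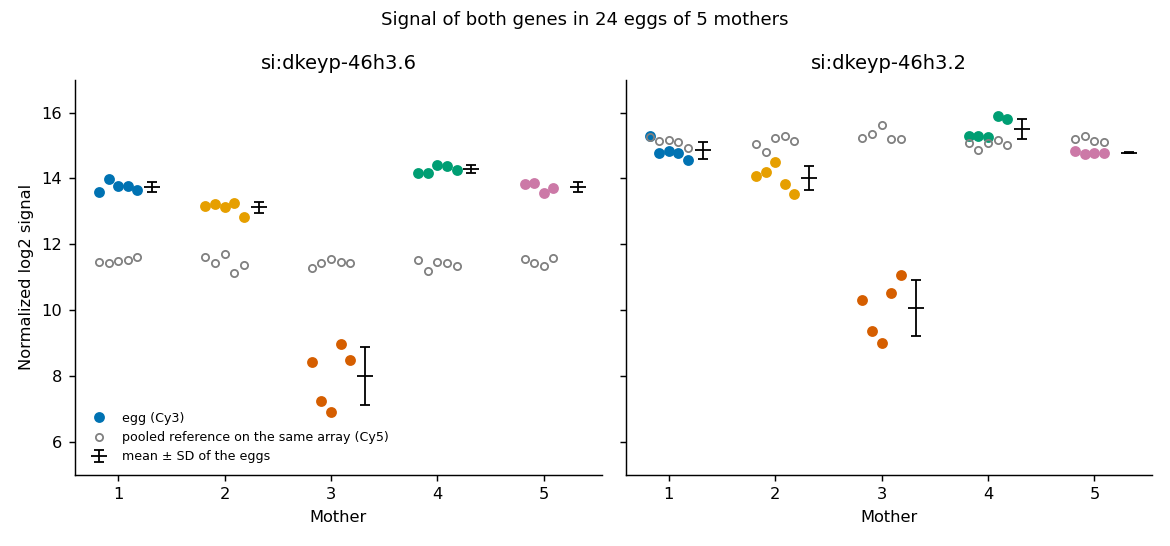
Normalized log2 signal (vertical axis) of si:dkeyp-46h3.6 (left) and si:dkeyp-46h3.2 (right) by mother (horizontal axis): filled points are single eggs (Cy3), bars the mean ± SD of the eggs, and open points the pooled reference on the same array (Cy5). The 5 eggs of mother 3 lie at 6.92 to 8.96 and at 8.997 to 11.07, apart from all other eggs, while the reference stays level across the mothers.

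The low signal of mother 3 was still a measured one. Before normalization its eggs had a Cy3 signal of 172.5 to 576 at the si:dkeyp-46h3.6 spot, against 4167 to 44509.5 in the other 19 eggs, and of 828 to 2498 at the si:dkeyp-46h3.2 spot, against 6044 to 109628. In mother 3 the signal at the si:dkeyp-46h3.6 spot was 2.66 to 9.60 times its local background, and both spots were well above background and unsaturated on all 24 arrays. Egg 5 of mother 3 had the lowest raw signal of its clutch for both genes, and after normalization it was the second highest for si:dkeyp-46h3.6 and the highest for si:dkeyp-46h3.2. The array of that egg was the dimmest of mother 3. Without egg 5, mother 4 was 84.0-fold above mother 3 for si:dkeyp-46h3.6 and 52.2-fold for si:dkeyp-46h3.2, against 77.5-fold and 43.8-fold with it.

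The measured drop in mother 3 was larger in si:dkeyp-46h3.6 than in si:dkeyp-46h3.2, by an amount that depended on the processing. Without background subtraction, as here, the spans between mothers were 6.28 and 5.45 on the log2 scale. With Agilent's processed signal they were 6.94 and 5.27. The part of background and of cross-matched transcripts in this was not tested. The signal of si:dkeyp-46h3.2 minus that of si:dkeyp-46h3.6, a difference that holds the affinity of each probe and is read here only across mothers, was 2.05 ± 0.38 (SD, n = 5) in mother 3. It was 1.099 ± 0.34 in mother 1, 0.90 ± 0.31 in mother 2, 1.22 ± 0.30 in mother 4 (SD, n = 5 each) and 1.04 ± 0.15 (SD, n = 4) in mother 5.

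Among the 26934 expressed transcripts the span between the highest and the lowest mother mean had a median of 1.37-fold, and 12 transcripts had a span over 5 on the log2 scale. With spans of 6.28 and 5.45, si:dkeyp-46h3.6 ranked 2nd and si:dkeyp-46h3.2 ranked 7th. The ranges of the clutches fell into at least 2 separate levels in 18.2% of the expressed transcripts, and in 1.84% every egg of mother 3 lay below every other egg. Both genes are in both groups, which the choice of the pair fixed, so nothing is read from it. The differences between mothers made up 97.5% of the variance of si:dkeyp-46h3.6 over the 24 eggs and 95.8% of that of si:dkeyp-46h3.2. As the pair was chosen for this difference, its ranks and these shares are descriptions only.

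**Figure D2:**
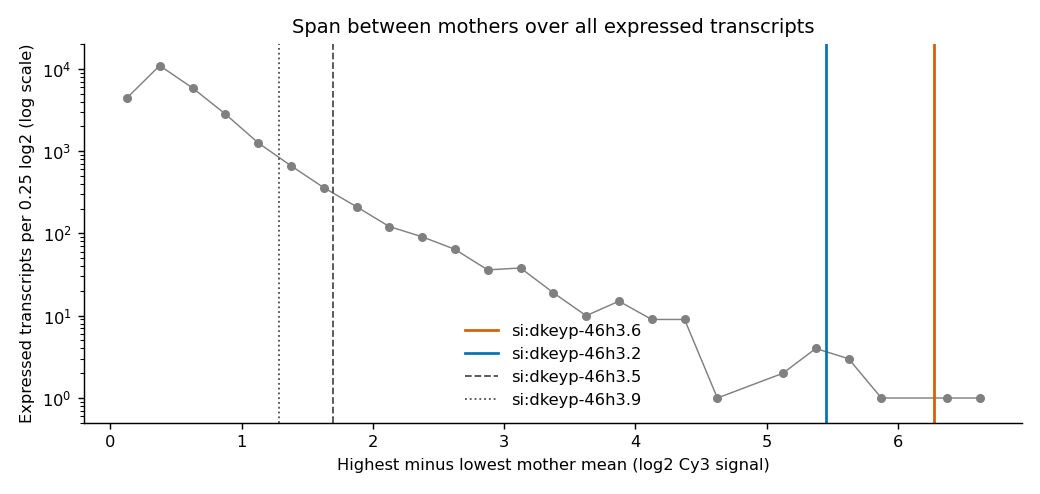
Number of expressed transcripts (log axis) by the highest minus the lowest mother mean of the log2 Cy3 signal (horizontal axis, points in steps of 0.25), with vertical lines at 6.28 for si:dkeyp-46h3.6, 5.45 for si:dkeyp-46h3.2, 1.70 for si:dkeyp-46h3.5 and 1.28 for si:dkeyp-46h3.9. The pair, which was chosen for its difference between mothers, lies in the sparse far end of the distribution. Its neighbours from the same clone have narrower spans that are still above those of most expressed transcripts. They rank 704th for si:dkeyp-46h3.5 and 1547th for si:dkeyp-46h3.9 of 26934. The span of si:dkeyp-46h3.9 is as measured, with its spot well above background in 0 eggs of mother 1, its lowest mother.

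The Cy5 channel gave a measurement of the same spots on the same arrays that the choice of the pair did not use. In the pooled reference si:dkeyp-46h3.6 had a log2 signal of 11.45 ± 0.13 (SD, n = 24 arrays) and si:dkeyp-46h3.2 of 15.15 ± 0.16 (SD, n = 24 arrays). Grouped by the mother of the egg on the same array, the reference means of si:dkeyp-46h3.6 spanned 0.11 on the log2 scale (limma's moderated F of 0.449, adjusted p = 1 over all expressed transcripts). Those of si:dkeyp-46h3.2 spanned 0.28, with mother 3 highest (limma's moderated F of 2.66, adjusted p = 1). Of all 26934 expressed transcripts, 0% passed an adjusted p of 0.05 in the reference by limma. An unadjusted p under 0.05 was found in 196 of them, fewer than the share of 0.05 that chance gives. Each array carried the pooled reference whatever the mother of its egg, so no difference by mother was to be expected in it. The test therefore describes the spots and arrays only. The low values of mother 3 were seen in the egg channel of its 5 arrays and not in the reference channel of the same arrays.

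Within clutches the pair moved together mainly in mother 3. Over the 24 eggs, the deviations of both genes from their mother means had a Pearson r of 0.76 and a Spearman rho of 0.50, given as a description since the probes have cross-matched transcripts in common and lie on the same arrays. Over the 19 eggs of the other mothers r was 0.20, and without the 2 eggs farthest from their mother mean in si:dkeyp-46h3.6, both of mother 3, it was 0.65. Eggs 2 and 3 of mother 3 were low for both genes, by 0.76 and 1.09 on the log2 scale for si:dkeyp-46h3.6 and by 0.68 and 1.06 for si:dkeyp-46h3.2, and eggs 1, 4 and 5 were above the clutch mean for both. The pooled SD within clutches was 0.42 for si:dkeyp-46h3.6 and 0.47 for si:dkeyp-46h3.2 against a median of 0.18 over all expressed transcripts. For si:dkeyp-46h3.6 mother 3 alone made it wide, since the SD of the other clutches was 0.12 to 0.17, and for si:dkeyp-46h3.2 it was 0.03 to 0.37 in them.

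Over all eggs, the deviations of si:dkeyp-46h3.6 ran against array brightness more than those of si:dkeyp-46h3.2 did, and in mother 3 both genes ran against it. The deviation of si:dkeyp-46h3.6 had an r of -0.49 and a rho of -0.59 with that of the array's mean raw log2 signal, and the deviation of si:dkeyp-46h3.2 an r of -0.13 and a rho of 0.03. In mother 3, egg 3, the lowest for both genes, lay on the brightest array of the clutch (7.42). Eggs 4 and 5, the highest for both genes, lay on the dimmest arrays (6.89 and 6.69). The part of brightness in the result was not tested. In the reference channel the deviations of both genes had an r of 0.09.

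**Figure D3:**
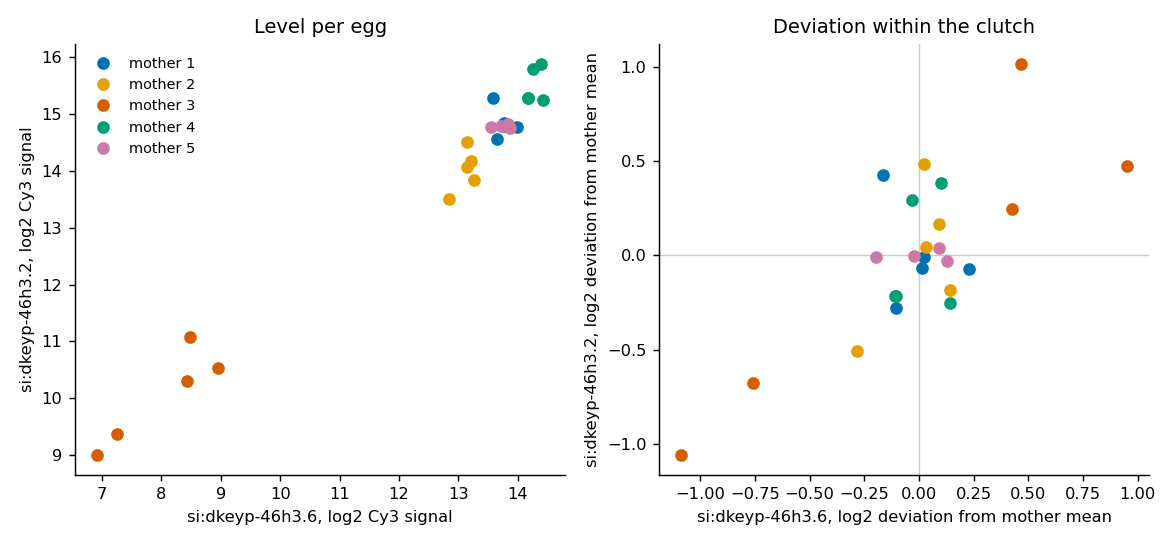
Left, log2 Cy3 signal of si:dkeyp-46h3.2 (vertical) against that of si:dkeyp-46h3.6 (horizontal), 1 point per egg coloured by mother. Right, the same eggs as deviations from their mother means (log2), where the spread along the diagonal is that of the 5 eggs of mother 3, with eggs 2 and 3 in the lower left.

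Both genes that lie between the pair on Zv9 had other profiles. si:dkeyp-46h3.5, whose probe lists all 3 design transcripts of si:dkeyp-46h3.6 and the design transcript of si:dkeyp-46h3.2, had means of 10.90 ± 0.38, 11.65 ± 0.30, 10.91 ± 0.24 and 12.59 ± 0.14 (SD, n = 5 each) for mothers 1 to 4 and of 11.29 ± 0.28 (SD, n = 4) for mother 5. Mother 4 was highest without overlap, as in si:dkeyp-46h3.6, but mother 3 was level with mother 1 and the whole span was 3.24-fold. Within clutches the deviations of si:dkeyp-46h3.5 had an r of 0.35 and a rho of 0.41 with those of si:dkeyp-46h3.6 over 24 eggs. With those of si:dkeyp-46h3.2 they had an r of 0.58 and a rho of 0.65. si:dkeyp-46h3.9, with no cross-matched transcript, ran the other way: the eggs of mother 3 read 7.57, 7.43, 7.22, 7.50 and 7.47 and those of the other mothers 6.10 to 6.43. Its spot rose well above background in all 5 eggs of mother 3, in 1 of 5 of mother 2 and in 0 eggs of mothers 1, 4 and 5. Taking the lowest signal well above background on each array as the limit for those mothers, mother 3 was at least 1.99-fold above mother 1, at least 2.16-fold above mother 4 and at least 2.04-fold above mother 5. Both genes were listed for their differences between mothers and were not tested.

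Within 1 Mb of the pair 9 other transcripts were paired with a gene, and 5 of them came from a table of expressed genes that was not selected on differences between mothers. All 5 passed limma's F-test over the mothers at an adjusted p of 0.05, where 61.6% of the expressed transcripts did. All 5 were also on the study's own list of genes that differed by clutch in these same eggs, so their passes are a description. For nrsn1l this holds further, since it counted as present on 9 of the 24 arrays and on 0 of mother 3. In 4 of the 5, mother 3 was the highest mother, the reverse of the pair, while over all expressed transcripts mother 3 was highest in 22.6% and lowest in 23.5%. Neighbouring genes are not independent of each other, and 5 are too few to call this particular to the region.

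ndufs6, a subunit of complex I of the respiratory chain, had the widest span of the 5 as normalized here, while with Agilent's processed signal nrsn1l did. Mother 3 stood at 12.08 ± 0.13 (SD, n = 5), without overlap with another clutch, and mother 5 at 10.95 ± 0.20 (SD, n = 4), a span of 2.19-fold (limma, adjusted p = 1.42e-07). znrd1, a subunit of RNA polymerase I named POLR1H in the reference, stood at 12.39 ± 0.16 (SD, n = 5) for mother 3 and at 11.69 ± 0.24 (SD, n = 4) for mother 5, a span of 1.63-fold (limma, adjusted p = 2.39e-05). med10, a subunit of the Mediator complex, spanned 1.39-fold from mother 1 to mother 3 (limma, adjusted p = 0.00634), and mrpl36, a protein of the mitochondrial ribosome, 1.32-fold from mother 5 to mother 3 (limma, adjusted p = 0.0144). In neither of these did the clutches fall into separate levels, since their ranges joined through other clutches. The highest and lowest mother did not overlap: mother 3 overlapped only mother 2 in med10, and all but mother 5 in mrpl36.

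The remaining gene of the 5, nrsn1l, was the one in which mother 3 was lowest, as in the pair. Its log2 signal was 6.54, 6.45, 6.44, 6.65 and 6.26 in the eggs of mother 3, below all other eggs, of which the lowest read 6.75. Mother 1 was highest at 7.38 ± 0.27 (SD, n = 5), with a measured span of 1.88-fold over mother 3 (limma, adjusted p = 2.57e-06). It counted as present on 9 of the 24 arrays, and so entered the expressed transcripts through eggs of mothers in which it was higher. Its test is therefore a description. In mother 3, 3 of the 5 spots rose well above background and 0 counted as present. The span, 0.91 on the log2 scale, was 2.58 with Agilent's processed signal. When the arrays were centred on their medians in place of quantile normalization, 0 of the 5 neighbours passed, with adjusted p from limma of 0.0508 to 0.157, although their spans did not reverse. On the log2 scale the span went from 0.70 to 1.36 in znrd1, from 0.475 to 1.34 in med10, from 1.13 to 1.76 in ndufs6 and from 0.40 to 1.07 in mrpl36, and from 0.91 to 0.60 in nrsn1l.

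Of the neighbours listed only for differing, UBE2QL1, which resembles ubiquitin-conjugating enzymes, had means of 8.27 ± 0.20 and 7.62 ± 0.12 (SD, n = 5 each) for mothers 3 and 2, and means of 6.46 to 6.56 for the other mothers. lpcat1, an acyltransferase that remakes phosphatidylcholine, was highest in mother 3 and spanned 1.60-fold. In all, mother 3 was highest in 7 of the 9 neighbours and lowest in 1. Over all expressed transcripts these shares were 22.6% and 23.5%. The neighbours that were not tested had been listed only for differing between mothers, and the tested ones were also on such a list. si:dkeyp-46h3.9 counted as present only in eggs of mother 3, and UBE2QL1 only in eggs of mothers 2 and 3. The expression call thus bore on the direction of both, and nothing is read from the count.

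**Figure D4:**
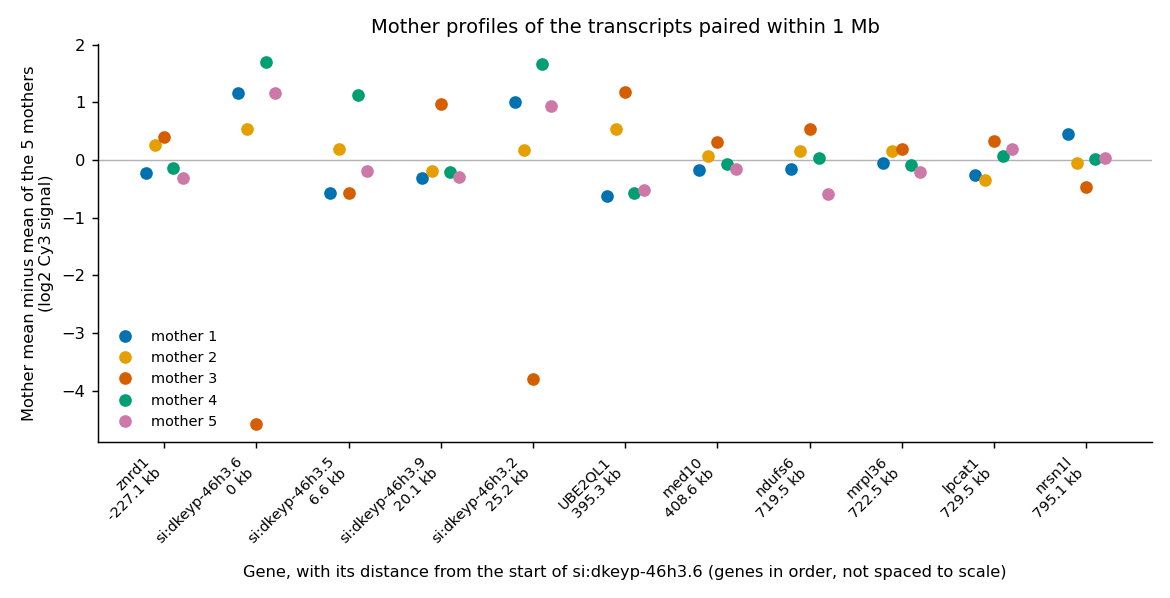
Mother mean minus the mean of the 5 mothers (log2 Cy3 signal, vertical axis) for the 11 transcripts paired within 1 Mb, in chromosome order with the distance of each gene start from that of si:dkeyp-46h3.6. Mother 3 is far below the line only in si:dkeyp-46h3.6 and si:dkeyp-46h3.2, and is the highest mother in 7 of the 9 others. It was highest in 22.6% of all expressed transcripts. All 9 were on lists of the study of genes that differed between mothers, so nothing is read from the count.

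2 further probes had transcripts in common with the lists of the pair. That of zgc:136410 shares 3 with si:dkeyp-46h3.6 and 4 with si:dkeyp-46h3.2, and its signal shared the lowest and the highest mother with the pair. The means were 8.06 ± 0.26, 8.21 ± 0.32, 6.47 ± 0.09 and 9.54 ± 0.18 (SD, n = 5 each) in mothers 1 to 4 and 8.33 ± 0.09 (SD, n = 4) in mother 5. Unlike in the pair, mother 2 overlapped mothers 1 and 5. Every egg of mother 3 was below every other egg, with 3 of 5 well above background and 0 of 5 counted as present, and mother 4 was highest without overlap. The measured span was 8.37-fold. Within clutches its deviations had an r of 0.28 and a rho of 0.53 with those of si:dkeyp-46h3.6 over 24 eggs. With those of si:dkeyp-46h3.2 they had an r of 0.09 and a rho of 0.11. That of mpv17, a protein of the mitochondrial inner membrane whose gene is on chromosome 20, shares 1 with si:dkeyp-46h3.2, and was lowest in mother 2, with a span of 1.68-fold. Whether the shared transcripts took part in the signals of the pair was not tested.

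The transcripts most like the pair over the 24 eggs were named by Pearson r among the 3545 expressed ones paired with a symbol, cross-matched ones left out. For si:dkeyp-46h3.6 they were mrpl30 (r = 0.99), gdap2 (0.98), kcnn1b (0.97), hsd3b1 (0.96) and zgc:86609 (0.95), and for si:dkeyp-46h3.2 mrpl30 (0.98), gdap2 (0.98), kcnn1b (0.97), scel (0.96) and hsd3b1 (0.96). mrpl30 encodes a protein of the large mitochondrial ribosome subunit, kcnn1b a calcium-activated potassium channel, hsd3b1 a steroid dehydrogenase and scel sciellin. Over the 19 eggs of the other mothers, a setting chosen after seeing the data, r was 0.62 to 0.85 for the 5 named for si:dkeyp-46h3.6 and 0.68 to 0.83 for the 5 named for si:dkeyp-46h3.2. Of all expressed transcripts, 68 (0.253%) had an r over 0.9 with si:dkeyp-46h3.6 and 118 an r under -0.9, and for si:dkeyp-46h3.2 these were 63 (0.234%) and 90. By Spearman's rank correlation, which takes no account of the size of a step between mothers, 1 of the 5 was kept for si:dkeyp-46h3.6 and 0 for si:dkeyp-46h3.2.

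mrpl30 was 8.26, 8.26, 7.84, 8.63 and 8.96 in the eggs of mother 3 and on average 11.60 in mother 2 and 12.30 to 12.34 in the others. Within mother 3 its lowest egg was egg 3 and its highest egg 5, as for si:dkeyp-46h3.2 and for gdap2. Egg 3 lay on the brightest array of the clutch and egg 5 on the dimmest, and the part of brightness was not tested. Over 24 eggs, the deviations of mrpl30 from the mother means had an r of 0.79 with those of si:dkeyp-46h3.2 and of 0.56 with those of si:dkeyp-46h3.6. gdap2 gave 0.72 and 0.57 in the same way and fell in mother 3 to a mean of 6.68, with 3 of 5 eggs well above background, against 9.46 to 10.36 in the others. In kcnn1b and hsd3b1 the spot rose well above background in 0 of 5 eggs of mother 3, so that mother 4 was at least 2.52-fold and at least 3.11-fold above mother 3.

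**Figure D5:**
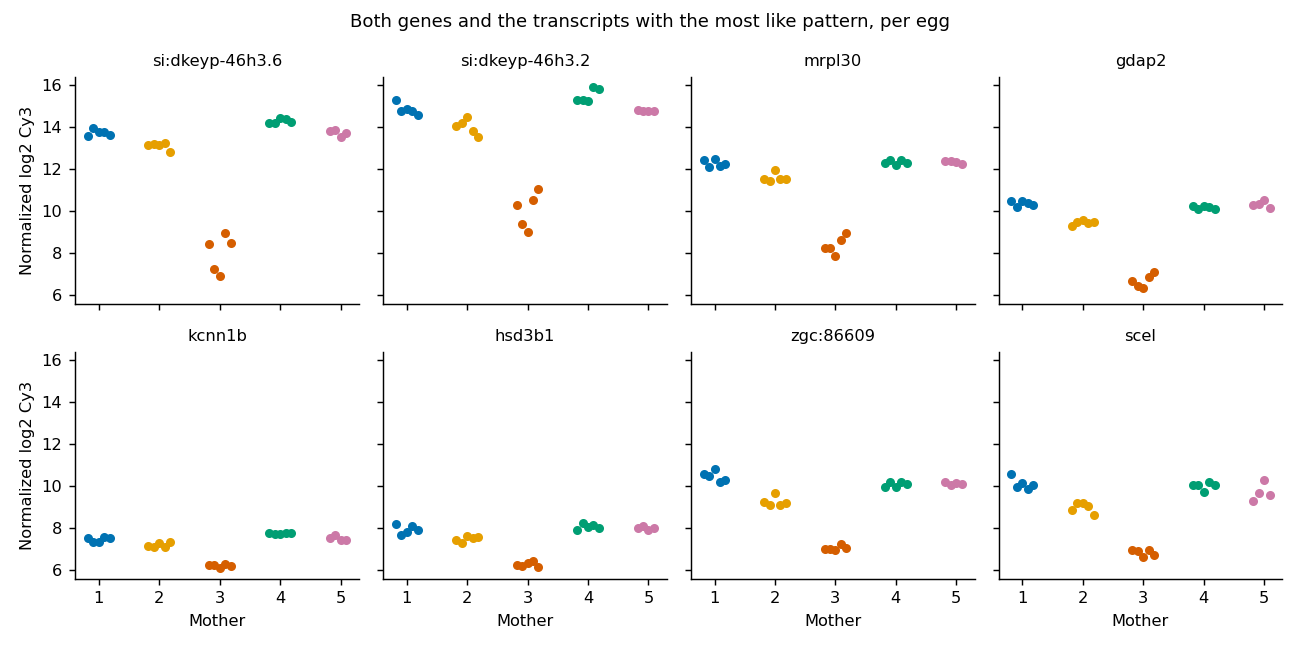
Normalized log2 Cy3 signal (vertical axis) of single eggs by mother (horizontal axis) for both genes and the 6 transcripts with the most like pattern, on one scale. All 8 are lowest in mother 3, and the eggs of mother 3 are spread most in si:dkeyp-46h3.6 and si:dkeyp-46h3.2.

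hsd3b1 is also used as a marker of the follicle cells that surround the oocyte. Of 11 such markers 3 were paired with a probe, and the others did not share its pattern: lhcgr, the receptor of luteinizing hormone, was 7.59 ± 0.18 (SD, n = 5) in mother 2 and 6.26 to 6.33 on average elsewhere, and cyp11a1, which starts steroid synthesis, was lowest at 10.41 ± 0.26 for mother 2, with 11.14 ± 0.23 for mother 3 (SD, n = 5 each), and highest at 11.63 ± 0.22 (SD, n = 4) for mother 5. The summed signal of the 3 was 2079.8 to 3011.7 per egg in mother 3 and 1383.3 to 3945.8 in the others. Most of it came from cyp11a1, and lhcgr counted as present on 5 of the 24 arrays. The 6 of 21 egg markers that were paired were present on all 24 arrays, and they differed in which mother was highest or lowest. h1m, the linker histone of the egg, was lowest in mother 3, as the pair was, with a mean of 8.38 ± 0.20 (SD, n = 5) against means of 9.58 to 11.27 in the others. birc5b was highest in mother 3, at 14.29 against 13.43 to 13.63. The means of npm2a lay between 10.73 and 10.86 in all mothers, those of npm2b between 13.33 and 14.26, those of zp2.3 between 13.26 and 14.40 and those of zp3.2 between 12.97 and 15.12. The summed signal of the 6 was 57862.4 to 69644.8 per egg in mother 3 and 44687.2 to 80831.1 in the others, and the part of these markers in the signals of the pair was not tested. Of blood markers 3 of 8 were paired, and of liver markers 0 of 6. The summed signal of the blood markers was 3606.1 to 7494.7 per egg in mother 3 and 3640.9 to 7031.4 elsewhere. Most of it came from si:ch211-5k11.6, while hbae1 counted as present on 1 of the 24 arrays and hbbe1.1 on 13. The arrays differed in brightness, with a mean raw log2 signal of 6.60 to 7.49, and 18833 to 25643 probes counted as present per array.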

How the data were processed

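The authors labelled egg RNA, polyadenylated and depleted of ribosomal RNA, with Cy3 and a pooled egg reference with Cy5, hybridized custom Agilent arrays and extracted spots with Agilent Feature Extraction 10.7.3.1. The deposited scanner files hold Cy3 and Cy5 intensity per spot with spot flags of other kinds, and the deposited table holds log2 Cy3 values that the authors quantile normalized. Here the log2 median Cy3 intensities of 88754 probes were quantile normalized, with 60 non-uniform spots left out. The deposited values differed from these by a median of 0.00218. A probe counted as present on an array where its intensity belonged with a probability over 0.95 to the probes of high variance (log2 variance over -3.75), and as expressed where present on at least 4 arrays. This call was rebuilt from the study's description. It gave fewer expressed transcripts than the study states and need not select the same ones, and all shares and ranks use it. The study removed genes that it could not normalize or that were extreme in a single sample, and these were not removed here. Mothers were compared with limma 3.58.1 in R 4.3.3 (lmFit, eBayes, moderated F, Benjamini-Hochberg over the expressed transcripts, adjusted p under 0.05), a test that was tried on simulated data. Arrays carry no sequencing depth, and their number limits the precision. Probe names, positions (Zv9) and cross-matched transcripts came from the parts held of the study's annotation tables, which pair 3835 probes with a gene. Named were the pair, all genes paired within 1 Mb or with a transcript in common, and per gene the 5 most like transcripts with a symbol. The members, lists and tests were chosen with earlier results of these data known. A p-value measures the spread between eggs of these clutches only. Alternatives were other background corrections, scalings and filters, blocks, and each egg left out.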

Additional observations from a re-analysis of the deposited data

Results flagged for a closer look

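In 65 clutches (13 transcripts in 5 mothers) the lowest or highest egg was set against the rest of its clutch, by its gap to the nearest egg as a share of the clutch's range. 6 stood apart, where chance flags about 1 in 20 groups, or 3.2. For si:dkeyp-46h3.6 this was egg 5 of mother 2, at 12.84 on the log2 scale against 13.14 to 13.26 in the other 4 eggs. That egg was also the lowest of its clutch for si:dkeyp-46h3.2. Egg 4 of mother 5 was high for si:dkeyp-46h3.5, at 11.70 against 11.12 to 11.18, and for UBE2QL1, at 6.83 against 6.43 to 6.49. Egg 3 of mother 5 was high for lpcat1, at 10.75 against 10.53 to 10.54. Egg 2 of mother 5 was low for znrd1, at 11.34 against 11.78 to 11.85. Egg 3 of mother 2 was low for mrpl36, at 11.69 against 12.08 to 12.21. No egg of mother 3 stood apart in this way for either gene of the pair.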

How the results depend on the processing

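Every egg of mother 3 stayed below every other egg for both genes under the 6 other settings of background, scaling and spot filter, and mother 4 stayed highest. Among these, the deposited values and the setting with non-uniform spots kept were quantile normalized like the main one. For si:dkeyp-46h3.6 mother 4 stood apart from all others under 4 of the 6, but not with the processed signal or the Cy3 over Cy5 ratio. For each gene mother 2 stood below mothers 1, 4 and 5 under 4 of the 6, but not with median centring or the ratio. The span of si:dkeyp-46h3.6, 6.28 on the log2 scale, was 6.94 where Agilent's processed signal was divided by its 75th percentile, 6.91 with arrays centred on the median and 6.74 with the Cy3 over Cy5 ratio after loess, and that of si:dkeyp-46h3.2, 5.45, ran from 5.27 to 5.85. Without 1 egg each, they ran from 6.004 to 6.51 and from 5.19 to 5.71. Centring on the median cut the transcripts that differed between mothers from 16593 to 3339 and the neighbours that did from 5 to 0, and moved the median of mother 4 minus mother 3 over all expressed transcripts from 0.01 to 0.32. The cause was not tested. med10 also failed with the ratio (limma, adjusted p = 0.108, 0.00598 to 0.157 over these settings). Without 1 egg each, 15721 to 17994 transcripts passed, and 5 neighbours each time. With egg number as a replicate block 16107 transcripts and 5 neighbours passed, but the numbers do not pair the eggs: same-numbered eggs of different mothers had a median r of 0.06, and 4 of 24 eggs correlated best with an egg of their own number. The within-clutch r of the pair, 0.76, was 0.84 with the processed signal and 0.20 without mother 3, a setting chosen after seeing the data, and 0.61 to 0.81 without 1 egg each. By rank correlation 1 of the 5 most like transcripts was kept for si:dkeyp-46h3.6 and 0 for si:dkeyp-46h3.2, and with the processed signal 4 each. The level of si:dkeyp-46h3.6 in mother 3 rests on spots as low as 2.66 times background.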

Other observations

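The 6 transcripts named as most like the pair, among the 3545 candidates with a symbol, were not spread over many chromosomes. All 6 had been listed for differing between mothers. By rank correlation 1 of the 5 named for si:dkeyp-46h3.6 was kept and 0 of those for si:dkeyp-46h3.2. On Zv9, mrpl30, gdap2, hsd3b1 and scel were placed on chromosome 9, between 17.3 and 22.02 Mb, and kcnn1b and zgc:86609 on chromosome 8, between 8.6 and 13.3 Mb, while the pair itself is on chromosome 19. Of the 2753 candidates with a position, 4.65% were on chromosome 9 and 5.27% on chromosome 8. These transcripts were picked for their pattern, so the positions were not tested.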
